A study of Sus scrofa with 6 samples.

Results

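Amino acid transporters of 7 solute carrier (SLC) families were followed in loin muscle (longissimus dorsi, which runs along the back) of Wei and Yorkshire pigs. The members are all genes whose symbol in the expression table begins with SLC1A, SLC3A, SLC6A, SLC7A, SLC36A, SLC38A or SLC43A and a number. This gave 40 of the 25322 gene rows, with 39 different symbols, since SLC7A2 has 2 rows. No SLC3 gene carries its symbol in the table. A further 12 rows without a symbol belong to these families by their Ensembl gene ID, among them SLC3A2, SLC6A8 and SLC38A2. They are described beside the members and not counted with them except where said. The rule also takes genes that carry other cargo or sit on other membranes, such as the serotonin transporter SLC6A4 and the lysosomal SLC38A9.

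There were 3 libraries from Wei pigs, reared on commercial feed and slaughtered at 90 kg, and 3 from Yorkshire pigs, which the labels say were kept in a similar way. Neither sex, age nor a Yorkshire slaughter weight is given in the labels, nor whether each library came from its own animal, so the spread behind each p-value is that between libraries and may in part be technical. Only Wei replicate 2 held more than 14 counts of Y chromosome genes (6901), so the Wei libraries were not all from 1 animal. It was thus the only library with clear Y gene expression, as of a male, and the Yorkshire group had none. The part of sex in the breed differences was not tested. Library names begin with LWH for Yorkshire and YH for Wei, codes left unexplained there. Total counts were between 15285197 and 27096747 per library, and the 40 members together took between 0.0224% and 0.0708% of them.

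Amino acids cross the muscle cell membrane through carriers that differ in cargo and in driving force. SLC1 and SLC38 carriers use the sodium gradient to concentrate glutamate or small neutral amino acids, SLC7 carriers of the light-chain kind exchange one amino acid for another and need a heavy chain from the SLC3 family to reach the membrane, and SLC43 carriers let large neutral amino acids pass down their gradient. In skeletal muscle, uptake of leucine and glutamine feeds protein synthesis and the mTORC1 growth pathway, and muscle exports glutamine and alanine in fasting.

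SLC38A4 and SLC43A2 were higher in Wei muscle, by 3.27-fold and 4.21-fold, and SLC1A4 was lower by 4.80-fold. These were the 3 members called among the 19 that passed the count filter, at a Benjamini-Hochberg adjusted p under 0.05 in edgeR's quasi-likelihood test over all genes. Of all 13209 genes tested, 5.08% were called, against 15.8% of the members (3 of 19). Of these 3, SLC1A4 passed the count filter through its Yorkshire counts, so its place among the tested genes is not independent of its direction. Calls higher in Wei made up 2.73% of all genes and calls lower 2.35%. No test of the members as a list was made, and with 3 calls the share is only a description. The Wei and Yorkshire values of 8 of the 19 members did not overlap, 4 with Wei above and 4 with Wei below (42.1%, against 29.6% of all tested genes, 14.3% above and 15.3% below). An unadjusted p under 0.05 was reached by 6 members (31.6%) and by 23.3% of all genes. Of the members, 12 of 19 had a log2 fold change below 0 (63.2%, against 52.2% of all genes). The median log2 fold change (Wei over Yorkshire) of the tested members was -0.17, and that of all genes was -0.02. With the 5 tested rows named by ID counted too, 13 of 24 were below 0 (54.2%) and the median was -0.02. The lean of the members below 0 thus depended on which rows carry a symbol. Without Yorkshire replicate 3 the members' median was -0.02.

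**Figure D1:**
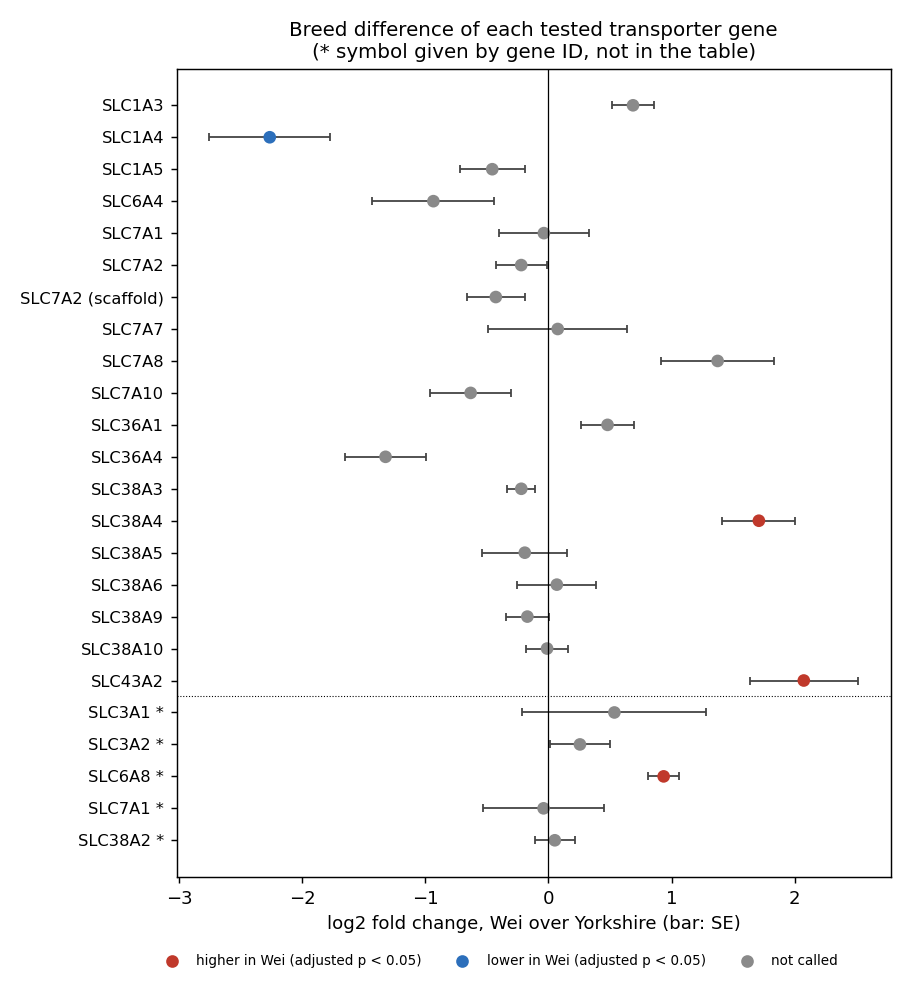
Log2 fold change (Wei over Yorkshire, horizontal axis, bars show the SE) of the 19 tested members and, under the dotted line and marked with an asterisk, the 5 tested genes named by ID only. SLC43A2, SLC38A4 and SLC6A8 were called higher in Wei and SLC1A4 lower, and the other genes were not called.

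The count of calls depended on single libraries. With 1 library left out, 0 or 1 member was higher and 0 or 1 lower. The share of all genes called was then 2.07%, 0.438% and 1.25% for Yorkshire replicates 1 to 3 and 1.58%, 2.87% and 1.81% for Wei replicates 1 to 3. Leaving out Yorkshire replicate 3 and Wei replicate 2 together kept 1 member higher, SLC43A2, and 0 lower in edgeR's test, beside 1.1% of all genes. With all libraries and other settings, 5.15% of genes were called with RLE scaling, 3.53% with library size alone, 4.39% without a count filter, 5.67% with a filter of 1 CPM, 4.88% by limma voom, 3.61% with a replicate block and 9.77% by DESeq2. DESeq2 called 3 members higher and 2 lower, adding SLC1A3 and SLC36A4.

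SLC38A4 (SNAT4, a sodium-coupled system A carrier of small neutral amino acids) lies on chromosome 5, 80391398 to 80427093 in Sscrofa10.2. Normalised read counts (CPM, scaled to equal library sizes) were 38.8, 40.1 and 47.1 in Wei replicates 1 to 3 and 7.27, 18.6 and 12.8 in Yorkshire replicates 1 to 3. The lowest Wei library stood above the highest Yorkshire library. Wei values lay close together, with a mean of 42.0 ± 4.47 CPM (SD, n = 3), while Yorkshire values spread by 2.56-fold around 12.9 ± 5.69. The log2 fold change was 1.71 ± 0.30 (SE; edgeR's quasi-likelihood test, adjusted p = 0.0243), rank 192 of the 13209 genes by p. It missed the threshold without Yorkshire replicate 3 (adjusted p = 0.0750), Wei replicate 1 (0.0523) or Wei replicate 3 (0.0659), at log2 fold changes of 1.71, 1.77 and 1.62, and without Yorkshire replicate 3 and Wei replicate 2 together (0.0986). Across the 6 fits with 1 library left out, the change stayed between 1.42 and 2.06.

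No other SLC38 gene was called in edgeR's test. SLC38A1 and SLC38A2, the other system A carriers, are its neighbours on chromosome 5, with SLC38A2 341 kb from SLC38A4 and 38.2 kb from SLC38A1. SLC38A2, one of the genes named by ID, stood at 33.5, 39.3 and 32.4 CPM in Wei and 37.2, 37.1 and 27.3 in Yorkshire, so the breeds overlapped. Its log2 fold change was 0.05 ± 0.16 (edgeR adjusted p = 0.878), and leaving out Yorkshire replicate 3 turned it to -0.079. SLC38A1 had 4, 7 and 5 counts in Wei and 8, 15 and 11 in Yorkshire, below the filter.

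SLC38A3 (SNAT3, a system N carrier of glutamine and histidine) had the least spread of the tested members, with 35.3, 38.8 and 37.4 CPM in Wei and 41.4, 44.7 and 43.9 in Yorkshire. All Wei libraries lay below all Yorkshire libraries, by a small margin. The change of -0.22 ± 0.11 on the log2 scale was not called (adjusted p = 0.282, edgeR). SLC38A5, SLC38A6, SLC38A9, the arginine-sensing lysosomal carrier, and SLC38A10 had log2 fold changes of -0.19, 0.068, -0.17 and -0.011, and their breeds overlapped. SLC38A11 had at most 4 counts in a library.

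SLC43A2 (LAT4, a facilitated carrier of branched-chain amino acids, phenylalanine and methionine) lies on chromosome 12, 49681830 to 49723909. Its values were 42.3, 100 and 36.7 CPM in Wei and 10.7, 9.96 and 21.6 in Yorkshire. Each Wei library stood above each Yorkshire library, but Wei replicate 2 was far above the other Wei libraries and Yorkshire replicate 3 above the other Yorkshire libraries. Wei averaged 59.6 ± 35.0 CPM (SD, n = 3) and Yorkshire 14.1 ± 6.54. The log2 fold change was 2.07 ± 0.44 (SE; edgeR adjusted p = 0.0378). Of the fits with 1 library left out, it passed only without Yorkshire replicate 3, at 2.53 with an adjusted p of 0.0477. Leaving out Yorkshire replicate 1 or 2 gave an adjusted p of 0.0921 or 0.137. Leaving out a Wei library gave 0.0602 (replicate 1), 0.0571 (replicate 2) or 0.0539 (replicate 3). Without Wei replicate 2 the change was 1.49. No other SLC43 gene is a member.

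SLC1A4 (ASCT1, an exchanger of alanine, serine, cysteine and threonine) lies on chromosome 3, 80818057 to 80833358. It was a low gene, with 2, 9 and 5 counts in Wei and 37, 24 and 47 in Yorkshire, or 0.118, 0.585 and 0.245 CPM against 1.45, 1.33 and 1.71. All Wei libraries were below all Yorkshire libraries, and the gene passed the count filter through its Yorkshire counts. The log2 fold change was -2.26 ± 0.49 (SE; edgeR adjusted p = 0.0390). It passed without Wei replicate 2 (-2.97, adjusted p = 0.0285), the Wei library with most counts of it. It missed when any other library was left out, with an adjusted p of 0.0777 (Yorkshire replicate 1), 0.119 (Yorkshire replicate 2), 0.102 (Yorkshire replicate 3), 0.0958 (Wei replicate 1) or 0.111 (Wei replicate 3).

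No other SLC1 gene was called in edgeR's test. SLC1A3 (GLAST, a glutamate and aspartate carrier; chromosome 16, 22924578 to 23007450) had 11.8, 9.10 and 10.18 CPM in Wei and 5.98, 6.97 and 6.41 in Yorkshire. The breeds did not overlap, and the change of 0.69 ± 0.17 (log2, SE) missed the threshold at an adjusted p of 0.0540 in edgeR, while DESeq2 gave 0.0217. SLC1A5 (ASCT2, a glutamine exchanger) had 5.21, 7.995 and 6.36 CPM in Wei and 6.68, 7.91 and 12.2 in Yorkshire, highest in Yorkshire replicate 3. It had a log2 fold change of -0.46 ± 0.26 (edgeR adjusted p = 0.334), or -0.16 without Yorkshire replicate 3. The glutamate carriers SLC1A1, SLC1A2, SLC1A6 and SLC1A7 had at most 11 counts in any library.

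**Figure D2:**
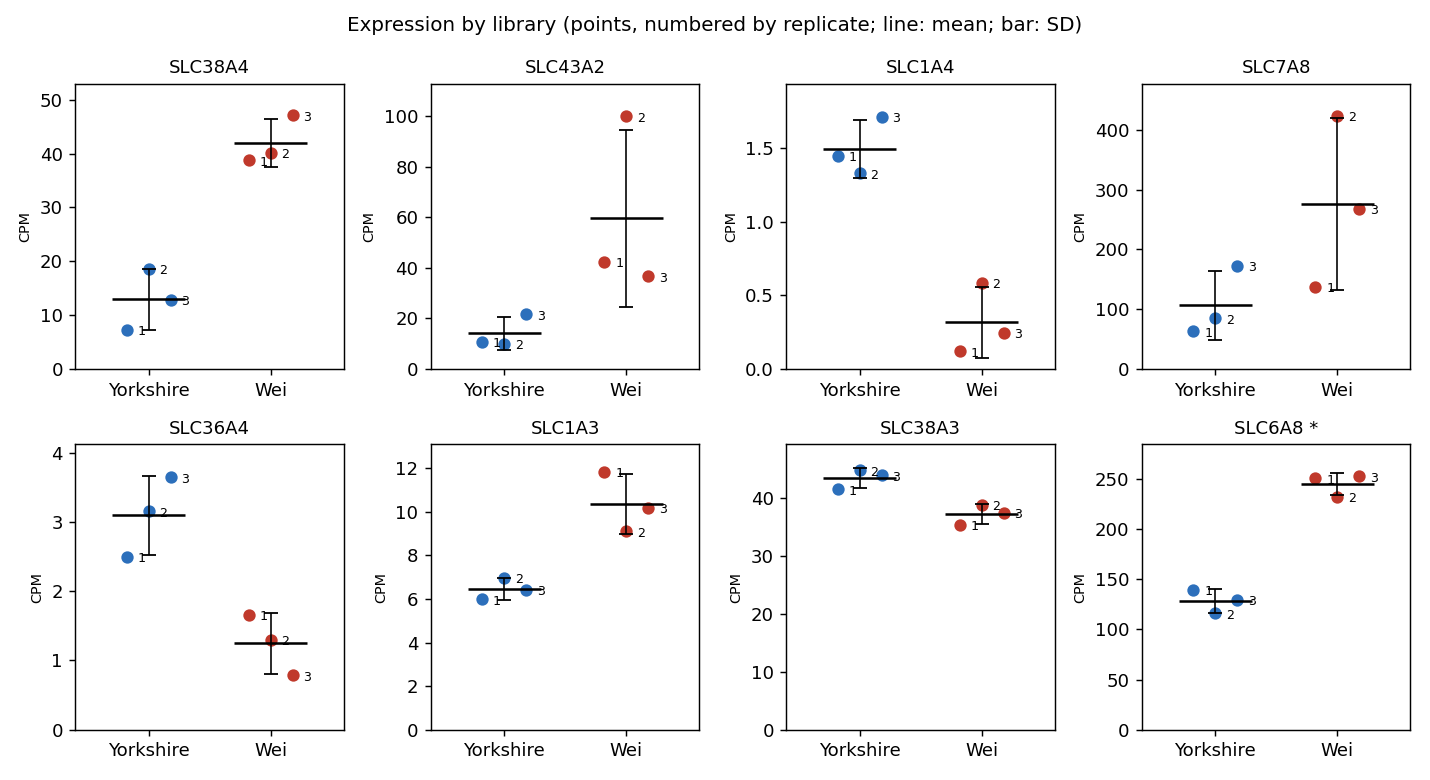
CPM of 8 transporter genes in each library (vertical axes start at 0; points are libraries numbered by replicate, lines the breed means, bars the SD, n = 3). SLC38A4, SLC43A2, SLC1A3 and SLC6A8 (asterisk, named by ID) are higher in every Wei library, SLC1A4, SLC36A4 and SLC38A3 lower in every Wei library, and SLC7A8 overlaps.

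SLC7A8 (LAT2, a light chain that exchanges large and small neutral amino acids; chromosome 7, 81241895 to 81260081) had the highest level of all members, per gene length as well as in CPM. It stood at 137, 424 and 268 CPM in Wei and 62.7, 84.5 and 172 in Yorkshire, and Yorkshire replicate 3 lay above Wei replicate 1. Values within a breed spread by 3.09-fold in Wei and 2.75-fold in Yorkshire. The difference of 1.37 ± 0.46 (log2, SE) was not called (edgeR adjusted p = 0.120). Under the other fits the adjusted p was between 0.0670 and 0.301, and the change was 0.93 without Wei replicate 2 and 1.91 without Yorkshire replicate 3. SLC7A7 (y+LAT1, an exchanger of cationic for neutral amino acids) lies 181 kb from SLC7A8 with 8 genes between them. It was low and overlapped between breeds, with 0.592, 1.495 and 1.17 CPM in Wei and 0.625, 0.664 and 1.75 in Yorkshire. The fitted change was 0.075 ± 0.57 (log2, SE).

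SLC3A2 (4F2hc, the heavy chain that SLC7A7, SLC7A8 and SLC7A10 need), named by ID, had 86.6, 127 and 70.3 CPM in Wei and 80.8, 59.9 and 97.0 in Yorkshire. Its breeds overlapped, with a log2 fold change of 0.26 ± 0.25 (edgeR adjusted p = 0.567) that was -0.0071 without Wei replicate 2. Levels of different genes are comparable only per length, for which the deposited FPKM values were used. On that scale SLC7A8 was at 39.6, 108 and 63.4 in Wei and 15.5, 22.3 and 48.2 in Yorkshire, and SLC3A2 at 50.6, 65.5 and 33.7 and at 40.4, 32.0 and 54.8. The ratio of SLC7A8 to SLC3A2 was 1.44 ± 0.579 (SD, n = 3) in Wei and 0.653 ± 0.251 in Yorkshire. Wei replicate 1, at 0.783, fell inside the Yorkshire range of 0.384 to 0.879, so the ratio did not separate the breeds. SLC7A10 (Asc-1, a carrier of small neutral amino acids) reached 1.28 FPKM at most, and SLC7A7 0.358. SLC3A1 (rBAT), the heavy chain of cystine transport, also named by ID, had between 4 and 26 counts per library, and its light chains SLC7A9 and SLC7A13 had 0 in every library.

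The cationic carrier SLC7A2 (CAT2, of arginine, lysine and ornithine) was the next SLC7 gene by level. Its row on chromosome 17 (5704846 to 5725732) had 40.4, 58.0 and 60.0 CPM in Wei and 52.8, 53.8 and 78.2 in Yorkshire. The breeds overlapped at a log2 fold change of -0.22 ± 0.21 (edgeR adjusted p = 0.555), which was -0.0082 without Yorkshire replicate 3. A shorter SLC7A2 row lies on the unplaced scaffold GL895503.2 (17830 to 27035), and its Wei values, 4.61 to 6.90 CPM, were all below the Yorkshire values, 7.03 to 10.4 CPM, at -0.43 ± 0.23 (log2, SE; edgeR adjusted p = 0.309). Its counts were 13.3% of those of the chromosome 17 row in each Yorkshire library and 11.4%, 11.7% and 11.5% in the Wei libraries. This ratio was chosen after its values were seen and was not tested. As the counting of reads that match both rows is not known, the level of SLC7A2 is uncertain. SLC7A1 (CAT1) had a log2 fold change of -0.04 ± 0.37 and at most 17 counts in a library. A neighbouring row that carries the same symbol by ID had one of -0.04 ± 0.49. SLC7A10 had a log2 fold change of -0.63 ± 0.33 (adjusted p = 0.283), and its breeds overlapped.

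**Figure D3:**
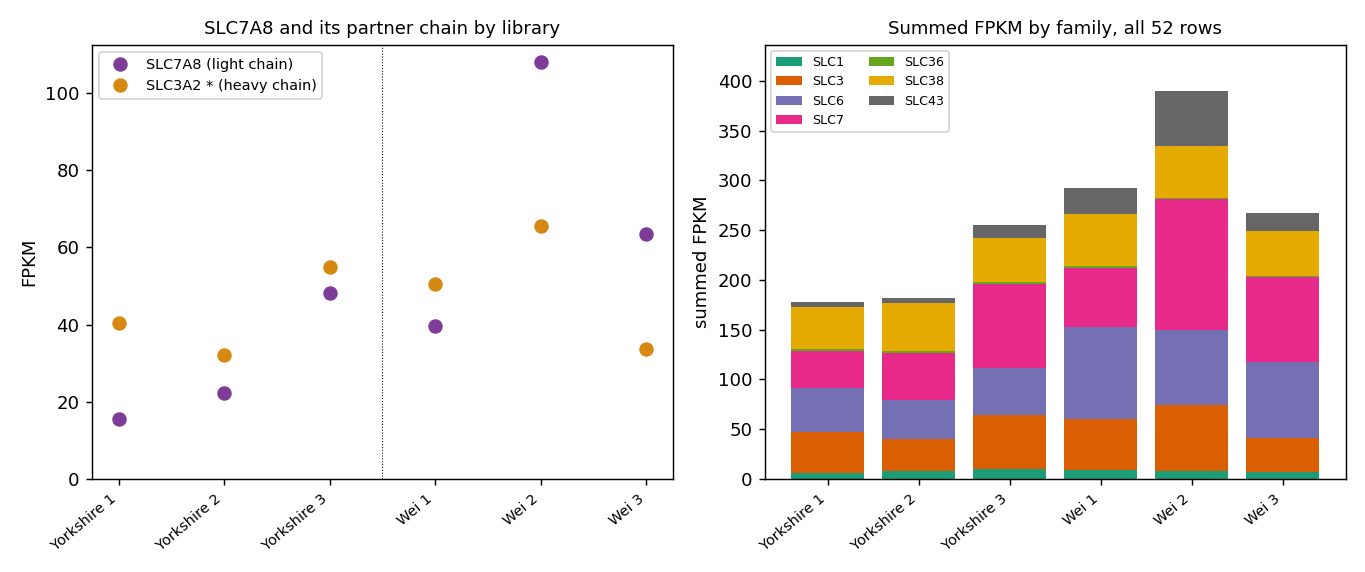
Left: deposited FPKM of the light chain SLC7A8 and the heavy chain SLC3A2 (asterisk, named by ID) in each library; SLC7A8 was highest in Wei replicate 2 (108) and lowest in Yorkshire replicate 1 (15.5). Right: FPKM summed over the 52 rows of the 7 families in each library, stacked by family; SLC7, SLC6, SLC3 and SLC38 make up most of each bar.

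The tested SLC36 genes, proton-coupled or related carriers of amino acids, lay on opposite sides of 0 and were not called by edgeR. SLC36A4 (PAT4; chromosome 9, 28983531 to 29033257) had 1.66, 1.30 and 0.783 CPM in Wei and 2.501, 3.15 and 3.64 in Yorkshire, with no overlap. Its change of -1.32 ± 0.33 (log2, SE) missed the threshold at an adjusted p of 0.0560 in edgeR, and passed without a count filter (0.0450) and in DESeq2 (0.0152). SLC36A1 (PAT1, which also acts on lysosomes) had 5.80, 7.15 and 4.99 CPM in Wei and 4.92, 4.43 and 3.50 in Yorkshire. These values did not overlap either, by a narrow margin, and on the FPKM scale they did. The log2 fold change was 0.48 ± 0.22 (adjusted p = 0.231). SLC36A3 had 0 counts in every library.

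Of the 10 SLC6 members, which carry neurotransmitters, betaine and some amino acids, only SLC6A4 (the serotonin transporter) passed the filter. It had 0.473, 0.715 and 1.32 CPM in Wei and 2.15, 1.94 and 0.838 in Yorkshire, overlapping, with a log2 fold change of -0.93 ± 0.50 (edgeR adjusted p = 0.289). SLC6A2 (the noradrenaline transporter) had 3, 2 and 10 counts in Yorkshire and 0 in each Wei library, too few for a test. SLC6A12 and SLC6A13, carriers of betaine and GABA, had at most 14 and 6 counts. Of the SLC6 genes named by ID only, the taurine transporter SLC6A6 had between 3 and 16 counts.

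The SLC6 gene with a clear level in this muscle was SLC6A8, the creatine transporter, which the table lists without a symbol (ENSSSCG00000012771; chromosome X, 142008589 to 142017917). It stood at 251, 233 and 253 CPM in Wei and 140, 116 and 130 in Yorkshire. The Wei libraries lay within 1.09-fold of each other and all were far above the Yorkshire libraries. The log2 fold change was 0.93 ± 0.12 (SE; edgeR adjusted p = 0.0111), rank 63 of 13209 by p. It passed in each fit with 1 library left out except without Yorkshire replicate 2 (adjusted p = 0.0590), and it missed without Yorkshire replicate 3 and Wei replicate 2 together (0.0548).

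Of the 40 members, 21 were below the count filter, each with at most 15 counts in a library. Among these, 8 had 0 counts in every library: SLC6A5, SLC6A14, SLC6A18, SLC6A19, SLC7A9, SLC7A13, SLC7A14 and SLC36A3, several of them known from kidney, intestine or brain. A count of 0 allows up to 3 counts, or between 0.111 and 0.196 CPM in these libraries, for counting error only. By mean FPKM over the 6 libraries the highest members were SLC7A8 (49.5), SLC43A2 (20.8), SLC7A2 on chromosome 17 (18.7), SLC38A3 (16.7) and SLC38A4 (6.999). SLC7A8 made up 40.9% of the summed FPKM of the members in Wei and 26.8% in Yorkshire, as a mean over libraries. Summed over the 40 members, FPKM was 129, 228 and 142 in Wei and 74.6, 90.2 and 138 in Yorkshire, so the breeds overlapped. With the 12 rows named by ID the sums were 292, 390 and 268 in Wei and 178, 182 and 256 in Yorkshire, which did not overlap. Without SLC6A8 they were 201, 315 and 192 in Wei and 135, 144 and 210 in Yorkshire, and the breeds overlapped.

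Markers of other cell types, and libraries that stood apart, were looked at beside these values. As this is whole tissue, fewer cells of a type and less RNA per cell cannot be told apart. Skeletal muscle markers were abundant in each library, with a summed 105186 to 178523 CPM, and 0 of 10 tested rows were called with edgeR, DESeq2 or limma voom (0 at an unadjusted p under 0.05). The 11 macrophage markers summed to 178 CPM in Yorkshire replicate 3 and to 41.3 to 52.1 in the other libraries. Of 9 tested, 0 were called with edgeR, 2 were lower at an unadjusted p under 0.05 and 2 were called by DESeq2. All 9 fitted values were below 0, with a median of -0.99. CD163 was at 0 in 5 of 6 libraries. The 13 lymphocyte markers summed to 31.2 CPM in Yorkshire replicate 3 and 3.91 to 7.85 elsewhere. Of 6 tested, 0 were called by edgeR, 5 were lower at an unadjusted p under 0.05 and 1 was called by DESeq2. All 6 fitted values were below 0, with a median of -1.69. Among Yorkshire libraries 11 of the 19 tested members were highest in that replicate, both SLC7A2 rows, SLC7A7, SLC7A8, SLC7A10, SLC43A2, SLC1A4, SLC1A5, SLC36A4, SLC38A5 and SLC38A6, as was SLC3A2, and the part of those cells in these values was not tested. Fibroblast markers summed to 584 to 1587 CPM in Wei and 2063 to 3404 in Yorkshire, with 1 of 10 lower in edgeR (DPT, -1.29 ± 0.21), 4 lower at an unadjusted p under 0.05 and 4 called by DESeq2. All 10 fitted values were below 0. DPT missed without Yorkshire replicate 2 (adjusted p = 0.0758), Wei replicate 1 (0.0592) or Wei replicate 3 (0.0625). Endothelial markers summed to 225 to 309 CPM, with 0 of 11 called and 1 at an unadjusted p under 0.05. Of smooth muscle and pericyte markers 1 of 11 was lower in edgeR (CSPG4), and 2 were called by DESeq2. At an unadjusted p under 0.05, 7 were lower and 0 higher, while 3 of the 11 fitted values were above 0. Their summed CPM overlapped between the breeds, with the highest sum in Wei replicate 3 (472). Over all tested genes 11.8% were lower at an unadjusted p under 0.05, the share to set beside each of these lists. CSPG4 missed when any single library was left out (adjusted p of 0.0591 to 0.123). Of the 2 tested mast cell markers KIT was lower, also with each single library left out (log2 fold changes of -3.49 to -2.88), while MS4A2 had 0.40 ± 0.44. As these 2 lay on opposite sides of 0, the amount of mast cells cannot be read from them. Of adipocyte markers 1 of 5 was higher (PLIN4) and 3 had fitted values below 0. PLIN4 missed without Yorkshire replicate 2 (adjusted p = 0.124), Yorkshire replicate 3 (0.102), Wei replicate 1 (0.0735) or Wei replicate 3 (0.0798). With edgeR, DESeq2 and limma voom, 0 were called among 8 slow fibre, 8 fast fibre, 4 Schwann cell, 1 red blood cell and 4 satellite cell markers. In edgeR 2, 0, 1, 0 and 0 of them had an unadjusted p under 0.05, against 23.3% of all genes. All 8 slow fibre markers had fitted values above 0, with a median of 0.30, beside 3 of the 8 fast fibre markers. Summed slow fibre CPM overlapped between the breeds, as Wei replicate 2 had the lowest sum (9692). The part of any of these cell types in the transporter values was not tested. Wei replicate 2, the library with Y chromosome counts, had the highest Wei value of 11 of the 19 tested members, and the values of SLC7A8 and SLC43A2 without it are given above. For this count and that of Yorkshire replicate 3 the share over all genes was not computed. Neither count can therefore be read as particular to the transporters. Wei replicate 1 had the lowest skeletal muscle sum (105186 CPM), the lowest fibroblast sum (584 CPM) and 3.77% of its counts on ACTA1, the skeletal muscle actin gene, against 6.52% to 8.76% in the other libraries. Without it SLC38A4, SLC43A2 and SLC1A4 missed the threshold, with the adjusted p given above for each.

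Genes around amino acid transport were examined in 8 lists, which held 116 different tested genes. Of these, 6 were higher in Wei with edgeR and 0 lower, a share near the 5.08% of all genes called. DESeq2 called 11 higher and 2 lower, and limma voom 6 and 0. An unadjusted p under 0.05 in edgeR was reached by 18 with a higher and 10 with a lower value (all genes: 11.4% and 11.8%). With 1 library left out, 1 to 5 list genes were called higher, the fewest without Yorkshire replicate 2.

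NEDD4, a ubiquitin ligase that removes membrane proteins from the cell surface, had 27.8, 22.6 and 30.5 CPM in Wei and 11.3, 10.6 and 10.6 in Yorkshire. Every Wei library stood above every Yorkshire library, and the change was 1.32 ± 0.15 (log2, SE; edgeR adjusted p = 0.00783). It was the 1 call of 9 partner and trafficking genes and was called with each library left out. FNIP1, a folliculin partner in lysosomal amino acid sensing, was the 1 call of 30 sensing genes, at 1.14 ± 0.15, and NFE2L2, a factor that drives glutathione genes and SLC7A11, the 1 call of 10 glutathione genes, at 0.93 ± 0.12. Both were missed when Yorkshire replicate 2 was left out (edgeR adjusted p = 0.0566 and 0.0590) and passed when any other single library was. SLC7A11 itself, a row named by ID, had 0 counts in each Wei library and 2, 1 and 1 in Yorkshire. It was below the count filter and was not tested. Of the 30 sensing genes, 8 were higher and 2 lower at an unadjusted p under 0.05 in edgeR (all genes: 11.4% and 11.8%). Wei lay above Yorkshire without overlap in 9 of them and below in 1 (all genes: 14.3% and 15.3%). DESeq2 called 4 of the sensing genes, all higher, and limma voom 1.

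The amino acid response list held ATF4 itself, the upstream kinase EIF2AK3 and genes switched on when amino acids run short. Of its 18 tested genes, CEBPB (0.96 ± 0.20) and PPP1R15A (1.71 ± 0.39) were higher. The list median was -0.16, and 12 of the 18 were below 0. An unadjusted p under 0.05 was reached by 2 with a higher and 4 with a lower value. DESeq2 called 3 genes of the list and limma voom 1. ATF4 itself, named after its values were seen, had a log2 fold change of -0.44 ± 0.20 (edgeR adjusted p = 0.218), and PHGDH, an enzyme of serine synthesis also named after its values were seen, had 2, 3 and 7 counts in Wei and 22, 25 and 17 in Yorkshire, through which it passed the filter; a further PHGDH row had at most 1 count and was not tested. PPP1R15A passed when Yorkshire replicate 1 (adjusted p = 0.0404) or Wei replicate 3 (0.0347) was left out and missed in the other fits with 1 library fewer (0.100 to 0.160). CEBPB passed when Wei replicate 1 was left out (0.0305) and missed in the others (0.0747 to 0.121). GPT, an alanine aminotransferase, was the 1 call of 16 genes of glutamine, glutamate, alanine and proline metabolism, at 0.64 ± 0.15 (adjusted p = 0.0482), and it missed when any single library was left out (0.0725 to 0.127). GLUL, glutamine synthetase, named after its values were seen, had 1082 CPM in Wei replicate 2 and between 258 and 405 in the other libraries.

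With edgeR, 0 genes were called among 9 creatine and taurine genes, 20 aminoacyl-tRNA synthetase genes and 6 amino acid and peptide transporters of other families. In these lists 1, 1 and 3 genes had an unadjusted p under 0.05. DESeq2 called 1, 0 and 0, and limma voom 0 in each. CKM and CKMT2, the muscle and mitochondrial creatine kinases, had log2 fold changes of -0.089 ± 0.22 and 0.32 ± 0.15, beside the 0.93 of the creatine transporter SLC6A8. KARS and DARS, the synthetases with the highest CPM, had -0.22 ± 0.13 and -0.10 ± 0.13. SLC15A4, a lysosomal histidine and peptide carrier, had 0.47 ± 0.13 (adjusted p = 0.0781), and MFSD12, a lysosomal cysteine carrier, 0.11 ± 0.19.

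**Figure D4:**
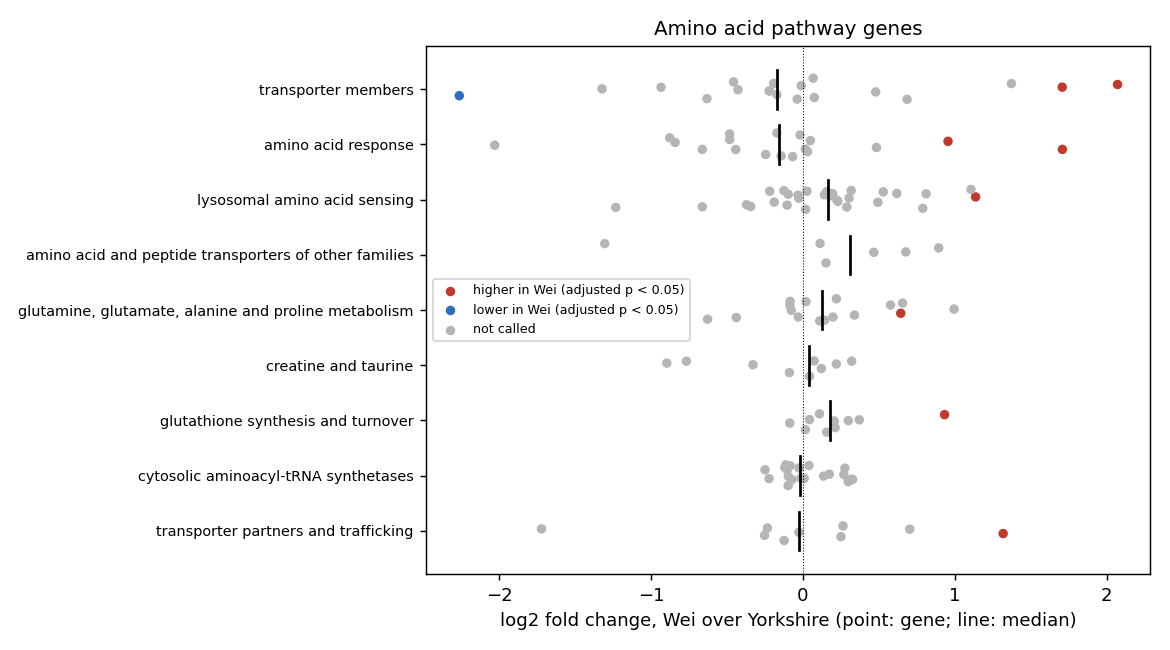
Log2 fold change (Wei over Yorkshire) of each tested gene of the 19 members and of 8 lists of amino acid genes; points are genes, black lines list medians. The 6 list genes called were all higher in Wei, and list medians lay between -0.16 and 0.31.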

How the data were processed

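Loin muscle RNA was sequenced in 6 libraries, grouped here by breed label. The authors deposited 1 table with raw counts and FPKM for every gene and library, per the file headers. The submitters' processing notes list CASAVA 1.7, TopHat2 2.0.9, edgeR and Sscrofa10.2 without saying what each was used for. The program that counted reads, the annotation release and any use of strand were not given in the sources used here, so genes that overlap or are near-identical are uncertain. The main test ran in R 4.3.3 on the deposited counts with edgeR 4.0.16: filterByExpr with a minimum count of 10, TMM factors, glmQLFit and glmQLFTest with breed as the only term, then Benjamini-Hochberg adjustment over all 13209 genes left, called at 0.05. Standard errors are the size of the log2 fold change divided by the root of its F statistic. The deposited FPKM served, untested, for levels between genes. A gene ID gave a symbol to 1774 of 9160 rows that had none, for use in the lists and for the 12 further rows. Every pair of libraries differed beyond sampling noise (chi-square of 26.3 or more per degree of freedom). On counts simulated for this comparison (13209 genes with equal dispersion) the procedure recovered 48.5% of 2-fold and 100% of 4-fold changes, and 6.4% of its calls were false. Each simulated gene had the same spread between libraries, 21.8% beyond counting error. The CPM of SLC7A8 and SLC43A2 had an SD of 46.4% to 58.8% of the mean within a breed. These rates therefore do not apply to genes that vary as much as those. Intervals for counts of 0 cover counting error only.

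Members and lists were chosen with earlier results of these data known. The members named were those with an unadjusted p under 0.05, the 2 tested members of each family with the highest mean FPKM, and both SLC3 chains. Each list gave up to 4 called genes, or else its 2 with the highest CPM. Exceptions are said to be so, and the remaining members are accounted for by value, count or range. Alternatives were RLE factors, library size alone, other filters, DESeq2 1.42.0, voom of limma 3.58.1, a replicate block and fewer libraries. In a further alternative the rows named by ID were counted with the members. Plots used matplotlib 3.10.9.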

Additional observations from a re-analysis of the deposited data

How the results depend on the processing

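All alternatives were planned. Counting the rows named by ID with the members gave 3 higher and 1 lower of 24 tested. It moved the median log2 fold change from -0.17 to -0.02. With all libraries and without a block, SLC38A4, SLC43A2 and SLC1A4 were called under each setting. Omitting the count filter gave 2 members lower, and DESeq2 gave 2 lower and 1291 calls over all genes; the cause was not tested. Leaving out 1 library gave 0 to 1 member higher, 0 to 1 lower and 60 to 394 calls over all genes, from fewer samples. With Yorkshire replicate 3 and Wei replicate 2 both left out, 1 member was higher, 0 were lower and 146 genes were called in all. The replicate block gave 1 member higher and 0 lower, and 477 calls over all genes; SLC43A2 (adjusted p = 0.0650) and SLC1A4 (0.0628) were not called in that fit. Libraries with the same number had deviations that correlated by 0.14, -0.0066 and 0.022 over genes, and they were not treated as pairs. None of the members that the naming rule took changed direction under these alternatives, and the direction of the other members was not followed. Of the genes named by ID, SLC38A2 (-0.079 to 0.12 on the log2 scale with 1 library left out) turned to -0.079 without Yorkshire replicate 3, -0.030 without Wei replicate 2 and -0.17 without both. SLC3A1 (0.037 to 1.52) turned to -0.054 without both, and SLC3A2 (-0.0071 to 0.43) to -0.0071 without Wei replicate 2. The SLC7A1 row named by ID (-0.63 to 0.34) turned to 0.0026 with library size alone, and to 0.34, 0.083 and 0.30 without Yorkshire replicate 1, Wei replicate 2 and Wei replicate 3. None of these 4 was called under any setting. Low counts limit what can be said of SLC1A4, SLC7A1 and SLC38A5, and the 21 members below the filter were not tested.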
